A study of Homo sapiens with 6 samples.

Results

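Sphingosine 1-phosphate (S1P) and glucosylceramide are lipids made from ceramide, and 10 genes that make, break down or sense them were examined in HK-2 cells after TGF-β1. The genes were chosen by name, with earlier results of these data known. They comprised the sphingosine kinases SPHK1 and SPHK2, the S1P phosphatases SGPP1 and SGPP2 and the S1P lyase SGPL1. Also included were the receptors S1PR1, S1PR2 and S1PR3, the glucosylceramide synthase UGCG and the ceramide synthase CERS2. All 10 were among the 41497 named entries in each gene table, and for each name the entry on a primary chromosome of hg38 was used. The files list each of them under its symbol with the prefix "gene-".

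RNA-seq was performed on HK-2, a human proximal tubule cell line that was immortalised, to measure the response of tubular cells to TGF-β1, a profibrotic cytokine. The cells were labelled wild type (WT) in both groups, with 3 control libraries from untreated cells and 3 TGF-β1 libraries, all collected at 24 h. Per the labels the cells were kept in medium with fetal bovine serum, whereas the methods of the study give the TGF-β treatment as serum-free, and whether the control cells had serum is not stated. The labels give no TGF-β1 dose, and they do not say whether the 3 libraries of a group came from separate cultures, so the p values measure the spread between libraries, which may be technical.

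Library totals ranged from 21.9 to 26.9 M reads (1 M is a megaread), and CPM stands for counts per megaread of library size. TGF-β1 replicate 1 stood somewhat apart, at 26.9 on the second principal component of log2 CPM against -15.1 to 9.41 for the other libraries, and without it 9 of the 10 genes were called instead of 8. All 5 TGF-β response genes chosen as a check (CCN2, COL1A1, SMAD7 and SKIL among them) rose, with log2 fold changes from 1.08 to 3.30. Of 11 renal epithelial markers, 7 passed the count filter and all 7 were called, 4 higher (KRT8, KRT18, AQP1 and CUBN) and 3 lower (PAX8, PAX2 and GGT1). Of all genes tested, 44.3% were called. The proximal tubule markers were uneven. GGT1 fell from 75.6 ± 7.22 to 50.5 ± 5.90 CPM and AQP1 rose from 0.396 ± 0.249 to 1.72 ± 0.511 CPM (SD, n = 3). LRP2 had no read in any library, HNF4A had 1 read in all, and CUBN stayed under 1 CPM in each library. Markers of other cells were summed over each list. The 4 podocyte markers had 51.8 to 57.1 CPM in control and 32.9 to 33.7 CPM after TGF-β1, nearly all from SYNPO, while WT1 had no read. The 6 fibroblast and mural markers had 64.7 to 75.1 CPM in control and 61.3 to 62.9 CPM after TGF-β1, mostly from LUM. Within that list PDGFRB rose from 0.551 ± 0.0938 to 5.79 ± 0.429 CPM (SD, n = 3), with a log2 fold change of 3.38, while ACTA2 had at most 6 reads in a library. The part of these cell markers in the results was not tested.

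Ceramide is broken down by ceramidases to sphingosine, which the sphingosine kinases phosphorylate to S1P. S1P can be returned to sphingosine by phosphatases or cleaved irreversibly by the lyase. It also leaves the cell through transporters such as SPNS2 and acts on G protein-coupled receptors named S1PR1 to S1PR5. In a separate branch, UGCG adds glucose to ceramide, the entry step to most glycosphingolipids. S1P signalling has been studied in kidney injury and fibrosis.

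TGF-β1 raised the transcripts of both sphingosine kinases, of the lyase and of the receptors S1PR2 and S1PR3. It lowered those of the phosphatase SGPP2, the receptor S1PR1 and UGCG. Of the 10 genes, 9 had enough reads to be tested, and 8 of them passed an adjusted p of 0.05 in the edgeR quasi-likelihood test, 5 higher and 3 lower. Among all genes, 44.3% of the 14860 tested were called, 22.2% higher and 22.1% lower. With scaling by total counts only, which moved the median of all genes to -0.10 on the log2 scale, 2134 genes were higher and 4590 lower. The change was at least 2-fold for SPHK1, SGPP2 and S1PR1, where 9.06% of all genes reached that size. The 3 control and 3 TGF-β1 values did not overlap for 8 of the 10 genes, and they did not overlap for 55.6% of all genes tested. The median log2 fold change of the 9 tested genes was 0.43, against 0.0063 over all genes. Since the 10 genes were chosen with earlier results known, their values beside those of all genes are a description only.

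**Figure D1:**
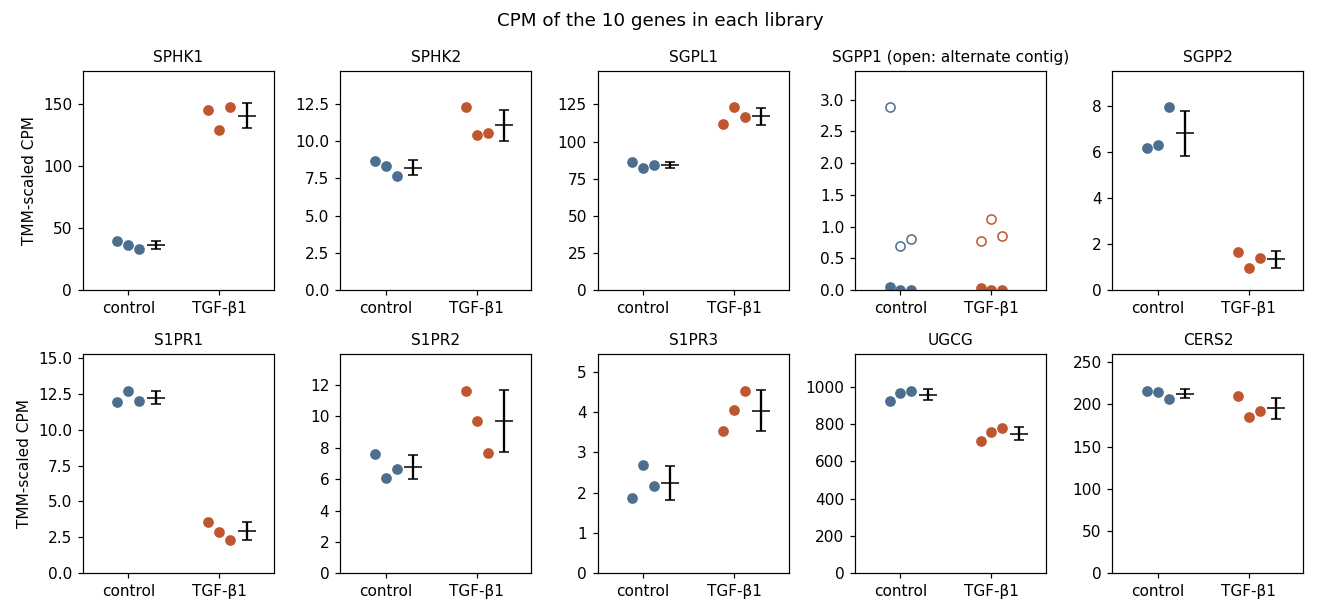
CPM scaled by TMM on the vertical axis for each of the 10 genes, with 3 control (blue) and 3 TGF-β1 (red) libraries as points and the mean ± SD beside them. For SGPP1 the filled points are its chromosome 14 entry and the open points its entry on an alternate contig, with no mean. SPHK1 lies between 33.2 and 39.5 CPM in control and between 129 and 147 after TGF-β1, whereas the CERS2 points of the groups overlap.

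SPHK1 (hg38 chromosome 17, 76383204 to 76387855, plus strand), the kinase found mainly in the cytosol and at the plasma membrane, had 39.5, 36.1 and 33.2 CPM in control and 145, 129 and 147 CPM after TGF-β1. Every TGF-β1 library lay above every control library. The mean rose from 36.3 ± 3.17 to 141 ± 9.92 CPM (SD, n = 3), a 3.88-fold rise with a log2 fold change of 1.96 ± 0.08 SE (adjusted p = 1.1e-08, edgeR). No other gene of the 10 rose as much, and SPHK1 exceeded 97.2% of all tested genes in the size of its change. In bulk RNA a change in the share of expressing cells and a change in RNA per cell cannot be told apart, here or in the results that follow.

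SPHK2 (chromosome 19, 48619409 to 48630407, plus strand), the other kinase, found mainly in the nucleus and in mitochondria, had 8.68, 8.30 and 7.67 CPM in control and 12.3, 10.4 and 10.5 CPM after TGF-β1. The groups did not overlap, but the rise was smaller than that of SPHK1. Its mean went from 8.22 ± 0.512 to 11.05 ± 1.05 CPM (SD, n = 3), a log2 fold change of 0.43 ± 0.10 SE (adjusted p = 0.00578, edgeR). SPHK2 overlaps DBP on the opposite strand by 378 bases. Whether reads were counted by strand is not given in the sources used here, but DBP had at most 33 reads in a library against at least 180 for SPHK2.

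Levels of different genes were compared in TPM, which divides by gene length. SPHK1 held 87.2% ± 0.305 (SD, n = 3) of the summed TPM of both kinases in control and 95.2% ± 0.392 after TGF-β1. The summed level of the kinases was 50.9 ± 3.36 TPM in control and 166.5 ± 9.47 TPM after TGF-β1. The groups did not overlap in either value, and the exact two-sided permutation p was 0.1 for each, the smallest that 3 libraries against 3 allow. With the kinase to lyase ratio and the shares and sum of S1PR1, S1PR2 and S1PR3 below, these made 7 values adjusted together by Benjamini-Hochberg. The exact permutation p of each was 0.1 before and after adjustment, so none could reach 0.05. Permutation tests of other values in the text were not adjusted.

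Promoter sequences of the 3 genes with a 2-fold change show what lies before their first annotated start. They were taken from RefSeq on GRCh38.p14, which held windows for 8 of the 10 genes. SGPP1 and CERS2 had none. Windows of 250 bases were searched on both strands for CAGAC (the SMAD-binding element), TGANTCA (the AP-1 site), GGGCGG (the SP1/KLF box) and CACCTG (the E-box of SNAI and ZEB factors), with capitals marking each match. These letters occurred in 38.0%, 6.57%, 42.6% and 17.5% of 35116 promoter windows, so a match is a description and not a binding site. The SPHK1 stretch covers chr17:76382954-76383203 and the SGPP2 stretch chr2:222423738-222423987. The S1PR1 stretch is the part of its window before the first exon, chr1:101236769-101236898, and all 3 lie on the plus strand.
SPHK1: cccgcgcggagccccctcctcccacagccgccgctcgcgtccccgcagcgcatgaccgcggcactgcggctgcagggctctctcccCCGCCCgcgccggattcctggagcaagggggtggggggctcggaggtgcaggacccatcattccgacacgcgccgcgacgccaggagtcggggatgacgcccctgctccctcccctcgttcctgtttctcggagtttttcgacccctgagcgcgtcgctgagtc
SGPP2: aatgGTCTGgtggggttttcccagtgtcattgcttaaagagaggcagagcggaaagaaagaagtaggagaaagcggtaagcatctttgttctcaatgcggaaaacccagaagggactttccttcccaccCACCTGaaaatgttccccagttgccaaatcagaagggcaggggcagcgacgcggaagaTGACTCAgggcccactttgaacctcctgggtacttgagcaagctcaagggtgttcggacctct
S1PR1: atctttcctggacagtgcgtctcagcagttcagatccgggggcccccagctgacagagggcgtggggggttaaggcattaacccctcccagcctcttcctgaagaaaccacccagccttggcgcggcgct

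The SPHK1 stretch held a single match, the SP1/KLF box on the minus strand, 164 bases before the start. The SGPP2 stretch held a SMAD-type match on the minus strand 246 bases before the start, an E-box 121 bases before it and an AP-1 match 63 bases before it. None of these letters was found in the S1PR1 window. SPHK1 and SGPP2 have further annotated starts inside the gene. Before that of SPHK1 at 76385278, an AP-1 match of the same letters was found at 71 bases. The window of another SPHK1 start held 1 SMAD-type match and 2 SP1/KLF boxes, and that of another SGPP2 start held 1 SMAD-type match, 7 SP1/KLF boxes and 2 E-boxes. The windows of the other genes searched held no AP-1 match, and any link between a match and a change was not tested. These 27 bases of chr2:222423915-222423941 and chr17:76385197-76385223, both on the plus strand, show the AP-1 letters of SGPP2 and SPHK1 in capitals.
SGPP2 AP-1 match: acgcggaagaTGACTCAgggcccactt
SPHK1 AP-1 match: cacggggctcTGACTCAtccgtcgggc

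SGPP2 (chromosome 2, 222423988 to 222562621, plus strand), an S1P phosphatase of the endoplasmic reticulum, had 6.16, 6.29 and 7.93 CPM in control and 1.65, 0.951 and 1.38 CPM after TGF-β1. All TGF-β1 values were below all control values. The mean fell from 6.79 ± 0.983 to 1.33 ± 0.353 CPM (SD, n = 3), which is 5.11-fold lower, with a log2 fold change of -2.35 ± 0.20 SE (adjusted p = 4.8e-06, edgeR). Of the 10 genes, SGPP2 had the largest change in size.

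SGPP1 (chromosome 14, 63684216 to 63728108, minus strand), the related phosphatase, could not be compared at its primary entry. In the control libraries that entry had 1, 0 and 0 reads, the TGF-β1 libraries also had 1, 0 and 0, and it did not pass the count filter. A second entry of the same name on an alternate contig, an extra copy of a stretch of the reference genome, held 65, 17 and 19 reads of the control libraries and 20, 27 and 18 of the TGF-β1 libraries. Nearly all reads of this name were therefore listed under the contig. With both entries summed the log2 fold change was -0.65 ± 0.60 SE (adjusted p = 0.427, edgeR). Control replicate 1 alone set its sign, and without that library the value was 0.31 (edgeR adjusted p = 0.432). SGPP1 was therefore not called, and its libraries were too uneven to give a direction.

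SGPL1 (chromosome 10, 70815920 to 70881184, plus strand), which cleaves S1P and is the exit from the sphingolipid pathway, had 86.3, 82.5 and 84.3 CPM in control and 112, 123 and 116 CPM after TGF-β1. The groups were separate by a wide gap relative to their spread. Its mean rose from 84.4 ± 1.89 to 117 ± 5.65 CPM (SD, n = 3), a log2 fold change of 0.47 ± 0.06 SE (adjusted p = 5.1e-05, edgeR).

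Transcripts of the S1P-making kinases and of the lyase were at nearly the same level in control and at different levels after TGF-β1. The ratio of kinase TPM to lyase TPM was 0.15 ± 0.11 on the log2 scale in control and 1.51 ± 0.17 after TGF-β1 (SD, n = 3, exact permutation p = 0.1), which is 1.11 and 2.85 on the linear scale. The lowest TGF-β1 library had 1.32 and the highest control library 0.24. These are transcript ratios, and neither enzyme activity nor S1P was measured in these files.

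The 3 receptors moved in different directions. S1PR1 couples to Gi proteins and promotes cell survival and barrier integrity in endothelium. S1PR2 and S1PR3 couple to several classes of G protein.

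S1PR1 (chromosome 1, 101236899 to 101241518, plus strand) had 11.9, 12.7 and 12.02 CPM in control and 3.57, 2.85 and 2.34 CPM after TGF-β1. The control libraries lay within a narrow range, and all TGF-β1 libraries were below it. The mean fell from 12.2 ± 0.433 to 2.92 ± 0.619 CPM (SD, n = 3), a 4.18-fold lower value with a log2 fold change of -2.06 ± 0.14 SE (adjusted p = 9.1e-07, edgeR). S1PR1 is also a gene of endothelial cells, and of 6 endothelial markers (PECAM1, CDH5, KDR, TEK, VWF and ERG) 2 passed the count filter, CDH5 lower and ERG higher. The summed level of the 6 markers was 2.17 to 3.41 CPM in control and 1.99 to 2.30 CPM after TGF-β1. After TGF-β1 PECAM1, CDH5 and VWF had no read in any library, while TEK had 1, 0 and 2 reads and KDR had 1, 0 and 0. In control PECAM1 had only 5, 4 and 5 reads, VWF 2, 1 and 1, TEK 2, 2 and 2, and KDR none. CDH5 was at 0.888 ± 0.346 CPM in control (SD, n = 3). The part of such transcripts in the S1PR1 result was not tested.

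The noncoding gene LOC101928370 lies 371 bases from S1PR1 on the opposite strand and was picked out after its values were seen. The control libraries had 7, 8 and 11 of its reads, and the TGF-β1 libraries had 0, 0 and 1. It was too low for the test across genes, and the ratio of its reads per library size was 0.0354 (95% exact interval 8.6e-04 to 0.215), which covers counting error only. The exact permutation p was 0.1.

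S1PR2 (chromosome 19, 10221433 to 10231331, minus strand) had 7.58, 6.05 and 6.65 CPM in control and 11.6, 9.72 and 7.69 CPM after TGF-β1. The groups came close, since the lowest TGF-β1 library lay just above the highest control library. The mean was 6.76 ± 0.770 CPM in control and 9.68 ± 1.98 CPM after TGF-β1 (SD, n = 3), a log2 fold change of 0.52 ± 0.15 SE (adjusted p = 0.0170, edgeR). The call was lost without control replicate 2 (log2 fold change 0.45, edgeR adjusted p = 0.0706) and without control replicate 3 (0.51, edgeR adjusted p = 0.0624).

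S1PR3 (chromosome 9, 88991468 to 89005155, plus strand) had 1.86, 2.70 and 2.17 CPM in control and 3.53, 4.05 and 4.54 CPM after TGF-β1. Each TGF-β1 library exceeded each control library. The mean rose from 2.24 ± 0.423 to 4.04 ± 0.501 CPM (SD, n = 3), a log2 fold change of 0.84 ± 0.18 SE (adjusted p = 0.00312, edgeR). C9orf47 overlaps S1PR3 on the same strand over 4675 bases, and how reads in that stretch were assigned is not given in the sources used here. C9orf47 had at most 5 reads in a library, against at least 42 for S1PR3. SHC3, whose entry ends 616 bases from S1PR3 on the opposite strand, was also higher at 0.66 ± 0.15 SE (adjusted p = 0.0053, edgeR). Neighbours of other genes of the 10 went both ways or were not called. UBE2O, 1601 bases from SPHK1, was higher as SPHK1 was (0.35, edgeR adjusted p = 6.1e-04). PCBD1, 1096 bases from SGPL1, was lower (-0.53, edgeR adjusted p = 0.0054) where SGPL1 rose. FARSB, 4278 bases from SGPP2, was higher (0.37, edgeR adjusted p = 4.9e-04) where SGPP2 fell. ANXA9, 7451 bases from CERS2, was lower (-0.70, edgeR adjusted p = 0.0227). RPL18, 231 bases from SPHK2, was not called (0.016, edgeR adjusted p = 0.871). SETDB1, 447 bases from CERS2, was not called either (-0.06, edgeR adjusted p = 0.468).

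Of the remaining receptors, S1PR5 (chromosome 19, 10512742 to 10517965, minus strand), a Gi-coupled receptor best known in natural killer cells and oligodendrocytes, changed more than any of the 3. It had 5.67, 5.68 and 5.20 CPM in control and 40.1, 33.7 and 31.99 CPM after TGF-β1. The mean rose from 5.52 ± 0.276 to 35.3 ± 4.27 CPM (SD, n = 3), with a log2 fold change of 2.68 ± 0.10 SE (adjusted p = 7.2e-09, edgeR). Of 5 leukocyte markers, PTPRC had at most 2 reads in a library at its primary entry and CD3E none. The sum of the 5, 92.4 to 102 CPM in control and 61.0 to 84.6 CPM after TGF-β1, came nearly all from CD68. S1PR4, the lymphoid receptor, was read 2, 1 and 4 times in the control libraries and never after TGF-β1, and it was not tested.

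The makeup of receptor transcripts depended on whether S1PR5 was counted. Over S1PR1, S1PR2 and S1PR3 alone, S1PR1 held 64.2% ± 1.83 of the summed TPM in control and 21.9% ± 1.61 after TGF-β1 (SD, n = 3). The share of S1PR2 was 28.0% ± 3.24 in control and 57.3% ± 3.89 after TGF-β1. That of S1PR3 was 7.81% ± 1.42 in control and 20.75% ± 5.43 after TGF-β1. The summed level of the 3 was 22.06 ± 0.252 TPM in control and 14.1 ± 1.67 TPM after TGF-β1. None of these values overlapped between groups, and the exact permutation p was 0.1 for each.

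With S1PR5 in the sum, which was added after its change was seen, the leading receptor transcript was a different one in each group. S1PR1 had 48.1% ± 1.47 in control and 5.37% ± 0.496 after TGF-β1, and S1PR5 had 25.1% ± 0.667 and 75.5% ± 0.869 (SD, n = 3). The shares of the other two were lower after TGF-β1 on this basis, at 20.96% ± 2.41 and 14.03% ± 1.32 for S1PR2 and at 5.85% ± 1.06 and 5.05% ± 1.202 for S1PR3. The S1PR3 shares overlapped between the groups (exact permutation p = 0.5). The summed level of the 4 receptors was 29.5 ± 0.385 TPM in control and 57.6 ± 5.70 TPM after TGF-β1 (exact permutation p = 0.1), so its direction was opposite to that of the sum over 3.

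**Figure D2:**
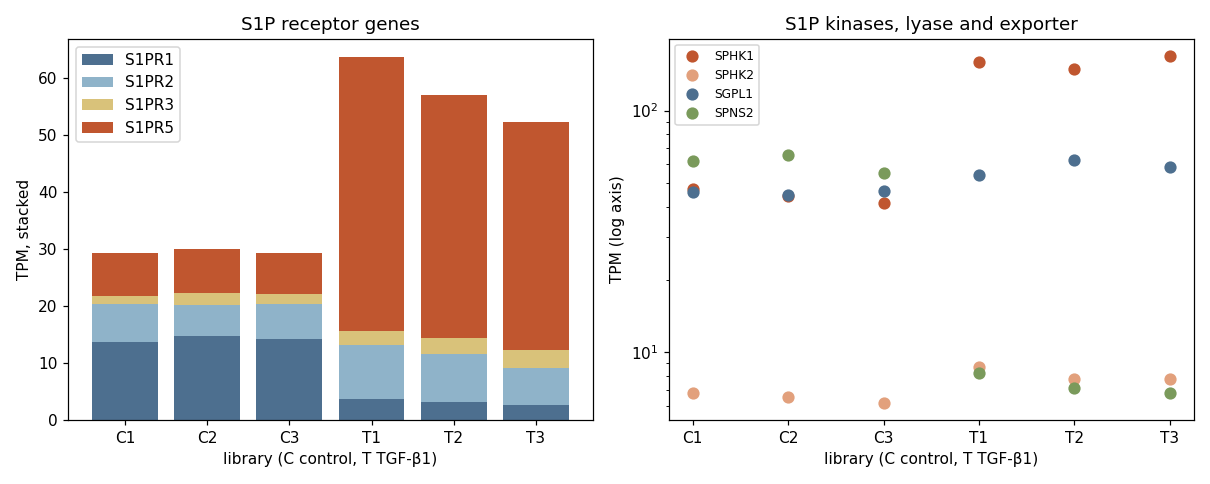
Left, stacked TPM of S1PR1, S1PR2, S1PR3 and S1PR5 in each control (C1 to C3) and TGF-β1 (T1 to T3) library. Right, TPM on a log axis of the kinases SPHK1 and SPHK2, the lyase SGPL1 and the exporter SPNS2 in the same libraries. The S1PR5 segment averages 7.40 TPM in control and 43.5 TPM after TGF-β1, SPHK1 lies beside SGPL1 in control only, and SPNS2 falls from 60.8 to 7.40 TPM, from above SPHK1 and SGPL1 to beside SPHK2.

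The transporter SPNS2 (chromosome 17, 4498881 to 4539035, plus strand), which carries S1P out of cells, fell further than any of the 10 genes. It had 66.2, 69.1 and 57.2 CPM in control and 9.76, 7.98 and 7.73 CPM after TGF-β1. The mean fell from 64.2 ± 6.18 to 8.49 ± 1.10 CPM (SD, n = 3), with a log2 fold change of -2.91 ± 0.10 SE (adjusted p = 7.3e-09, edgeR). Its entry overlaps MYBBP1A on the opposite strand by 132 bases, and MYBBP1A was higher, at 0.33 ± 0.06 SE (adjusted p = 0.0017, edgeR). MYBBP1A had up to 2585 reads in a library, against at least 162 for SPNS2. In the list of S1P export, carriage and remaining receptor genes, 6 of 8 genes were tested, with 1 higher and 4 lower. Over all genes tested, 22.2% were higher and 22.1% lower. PLPP3, a lipid phosphate phosphatase that dephosphorylates extracellular S1P, fell by 0.89 on the log2 scale. APOM, the plasma carrier of S1P, had no read at its primary entry, 1 of 7 of that name, and the reads of the others are not given.

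UGCG (chromosome 9, 111896766 to 111935369, plus strand) was the most abundant of the 10 genes. It had 925, 969 and 980.1 CPM in control and 709, 759 and 780.1 CPM after TGF-β1. The groups did not overlap, and the change was the smallest in size among the called genes of the 10. The mean fell from 958 ± 28.8 to 749 ± 36.7 CPM (SD, n = 3), a log2 fold change of -0.35 ± 0.06 SE (adjusted p = 5.1e-04, edgeR).

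A locus without a gene name lies 4547 bases downstream of UGCG on the opposite strand (chromosome 9, 111939916 to 111952697), where GENCODE v29 has no gene. It had 121, 122 and 135 CPM in control and 27.2, 27.2 and 29.3 CPM after TGF-β1. Its mean went from 126 ± 7.54 to 27.9 ± 1.19 CPM (SD, n = 3), with a log2 fold change of -2.18 ± 0.09 SE (adjusted p = 8.8e-10, edgeR). Reads of the locus per 100 reads of UGCG were 13.2 ± 0.558 in control and 3.72 ± 0.134 after TGF-β1 (SD, n = 3, exact permutation p = 0.1), so it was lowered more than its neighbour.

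**Figure D3:**
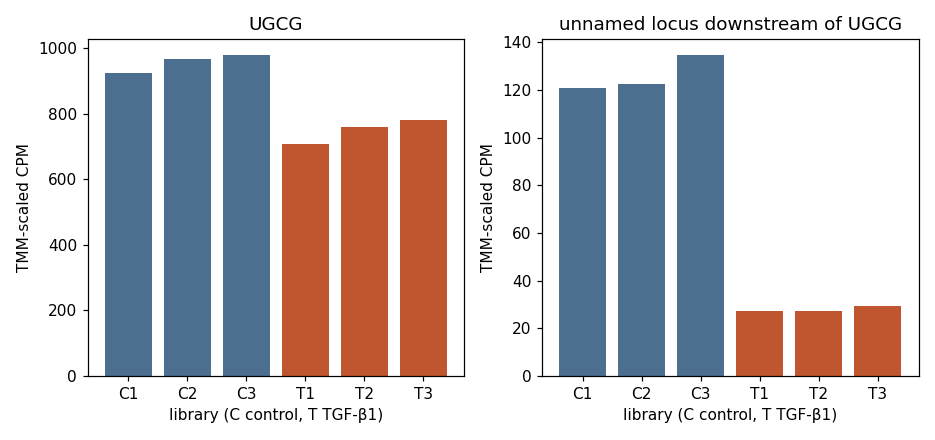
CPM scaled by TMM of UGCG (left) and of the unnamed locus downstream of it (right), with 1 bar for each control (C1 to C3) and TGF-β1 (T1 to T3) library and both axes starting at 0. UGCG falls from a mean of 958 to 749 CPM, and the locus falls from 126 to 27.9 CPM.

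CERS2 (chromosome 1, 150965184 to 150974835, minus strand), which makes ceramides with very long acyl chains, was not called. It had 216, 214 and 207 CPM in control and 209, 185 and 192 CPM after TGF-β1, and the groups overlapped. The means were 212 ± 5.10 and 195 ± 12.5 CPM (SD, n = 3), with a log2 fold change of -0.12 ± 0.06 SE (adjusted p = 0.116, edgeR). The call depended on scaling and on 1 library. CERS2 was called lower with scaling by total counts only (-0.23, edgeR adjusted p = 0.00881) and without TGF-β1 replicate 1 (-0.18, edgeR adjusted p = 0.00138).

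In control the order of levels in TPM was UGCG (633 ± 29.9), CERS2 (271 ± 2.19), SGPL1 (45.7 ± 1.01), SPHK1 (44.4 ± 3.07), S1PR1 (14.2 ± 0.564), SPHK2 (6.51 ± 0.289), S1PR2 (6.17 ± 0.644), SGPP2 (4.28 ± 0.698) and S1PR3 (1.73 ± 0.332; SD, n = 3), with SGPP1 last at its primary entry. The ranges of SGPL1 and SPHK1 overlapped, as did those of SPHK2 and S1PR2. After TGF-β1 the order was UGCG (456 ± 33.8), CERS2 (229 ± 8.07), SPHK1 (158 ± 9.44), SGPL1 (58.4 ± 4.35), S1PR2 (8.13 ± 1.49), SPHK2 (8.05 ± 0.529), S1PR1 (3.11 ± 0.585), S1PR3 (2.87 ± 0.415) and SGPP2 (0.767 ± 0.186). S1PR2 and SPHK2 overlapped there, and so did S1PR1 and S1PR3. SPHK1 therefore stood above the lyase after TGF-β1 and beside it in control.

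To place the 10 genes in the pathway, 71 further sphingolipid genes in 7 lists were read from the same fit. Of these, 70 were found and 59 were tested, and 31 were called (52.5%, beside 44.3% of all genes), with 12 higher and 19 lower. With total counts only, 7 were higher and 22 lower. Their median log2 fold change was 0.01, and 4 of them changed at least 2-fold, namely S1PR5, SPNS2, SPTLC3 and ST3GAL5. The lists were chosen with earlier results of these data known, so these counts are a description only. Among all genes tested, 22.2% were called higher and 22.1% lower, and no list was tested as a set against these shares.

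**Figure D4:**
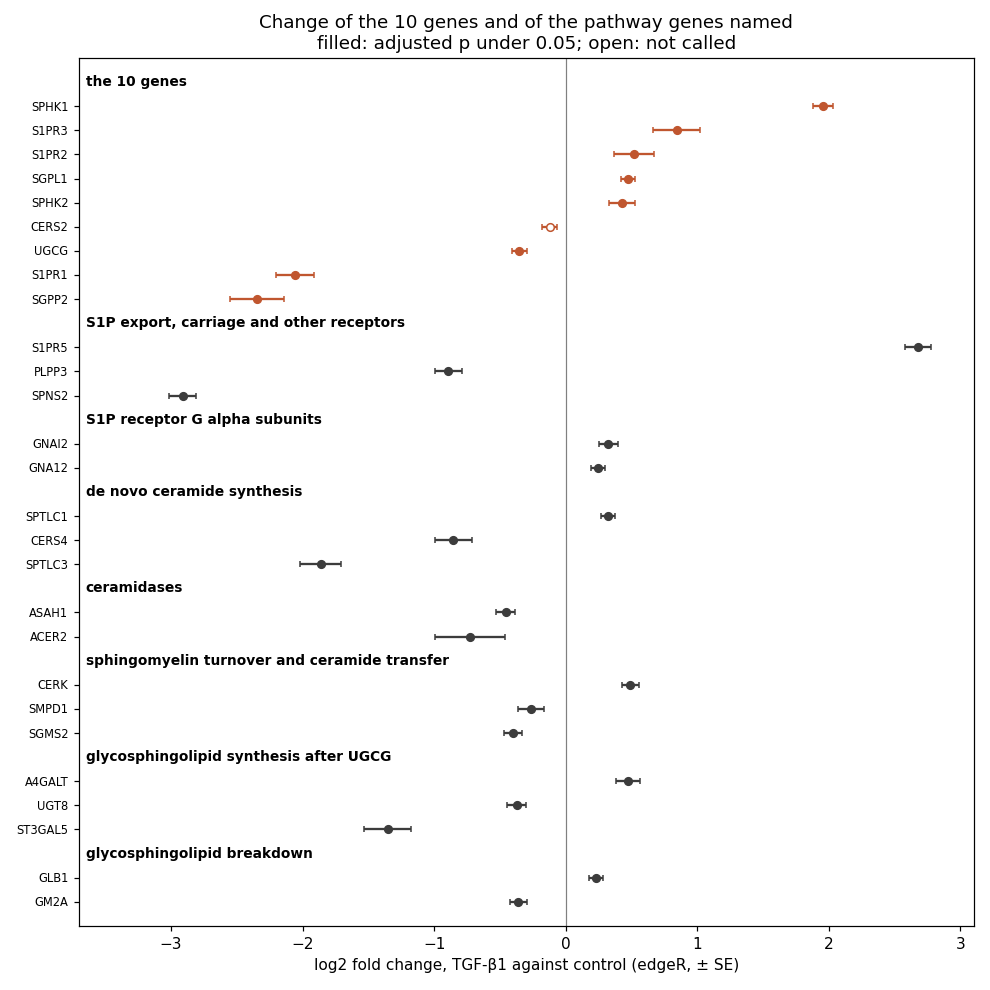
Log2 fold change of TGF-β1 against control (edgeR, bars ± SE) for the 9 tested genes of the 10 (red) and the called sphingolipid genes of the 7 lists that the text names, apart from SPTLC2 (grey), by list. Filled points had an adjusted p under 0.05. S1PR5 at 2.68 and SPNS2 at -2.91 lie outside the range of the red points, which runs from -2.35 to 1.96.

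Among genes of de novo ceramide synthesis, 4 of 13 tested were higher and 3 were lower, with a median log2 fold change of 0.05. SPTLC3, a subunit of serine palmitoyltransferase, the enzyme of the entry step, fell from 10.1 ± 0.958 to 2.79 ± 0.560 CPM (SD, n = 3), with a log2 fold change of -1.86 ± 0.15 SE (adjusted p = 3.1e-06, edgeR). TASP1 overlaps it on the opposite strand and was not called (0.04 ± 0.08, edgeR adjusted p = 0.709). TASP1 had up to 322 reads in a library, against at least 61 for SPTLC3. The shared subunit SPTLC1 rose by 0.32 and the ceramide synthase CERS4, a relative of CERS2, fell by 0.85 on the log2 scale. SPTLC2, another subunit, fell from 149 ± 5.83 to 100 ± 16.3 CPM (SD, n = 3), with a log2 fold change of -0.57 ± 0.11 SE (adjusted p = 0.0035, edgeR). It is named after its values were seen. SPTLC2 and SPTLC3 thus fell while SPTLC1, of the same enzyme, rose.

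Of 4 ceramidases tested, which release the sphingosine that the kinases use, none was higher and 2 were lower. Among all genes tested, 22.2% were higher and 22.1% lower. ASAH1, the lysosomal acid ceramidase, fell by 0.46 and ACER2, of the Golgi, fell by 0.73 on the log2 scale, although ACER2 missed the threshold in 5 alternatives, namely without each control library in turn, without TGF-β1 replicate 1 and with DESeq2. Of 9 tested genes of sphingomyelin turnover and ceramide transfer, 1 was higher and 2 were lower. CERK, which phosphorylates ceramide, rose by 0.49, SGMS2, a sphingomyelin synthase, fell by 0.40, and SMPD1, the acid sphingomyelinase, had a log2 fold change of -0.26 (edgeR adjusted p = 0.0482) that was lost in 7 alternatives.

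Downstream of UGCG, 2 of 10 tested genes of glycosphingolipid synthesis were higher and 4 were lower. ST3GAL5, which makes the ganglioside GM3 from lactosylceramide, fell from 4.89 ± 0.881 to 1.91 ± 0.248 CPM (SD, n = 3), with a log2 fold change of -1.35 ± 0.18 SE (adjusted p = 1.2e-04, edgeR). UGT8, which makes galactosylceramide, fell by 0.37, and A4GALT, which makes globotriaosylceramide from lactosylceramide, rose by 0.47. B3GNT5, which also acts on lactosylceramide, was not called (-0.07, edgeR adjusted p = 0.57) and is named after its values were seen. Of 10 tested genes of glycosphingolipid breakdown, 2 were higher and 4 were lower. GLB1 rose by 0.23 and GM2A, an activator protein in the breakdown of the ganglioside GM2, fell by 0.36.

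Of the G alpha subunits that S1P receptors use, 2 of 7 were higher and none was lower, beside 22.2% and 22.1% of all genes. GNAI2 rose by 0.32 and GNA12 by 0.24 on the log2 scale. GNA12 and, among the breakdown genes, GLB1 were not called with total counts only (0.14 and 0.12, edgeR adjusted p = 0.0600 and 0.0838). GNA12 overlaps AMZ1 on the opposite strand over 37083 bases, and AMZ1 was higher at 0.82 ± 0.07 SE (adjusted p = 3.8e-06, edgeR). AMZ1 had up to 3009 reads in a library, against at least 2216 for GNA12, and the part of its reads in the GNA12 value was not tested.

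The genes most like SGPP2, the most changed of the 10, were named by the Pearson correlation of log2 CPM over the 6 libraries among 10719 genes. They were IFNGR1, ANXA1 and IDH1, each with r of 0.998. With 2 groups of 3 libraries, any gene that falls evenly gives a high r, and 56 genes had r over 0.99. Their own log2 fold changes were -0.57, -0.88 and -0.28.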

How the data were processed

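Poly(A) mRNA of HK-2 cells was selected with oligo(dT) beads, and cDNA primed by random hexamers was sequenced. Per the submitters' processing notes, CASAVA, featureCounts 2.0.1, DESeq2 1.16.1 and hg38 were used. The aligner, the strand setting and the treatment of reads with several matches are not given in the sources used here. The deposited tables hold raw counts per gene for each library, and the authors also gave TPM and FPKM values, of which TPM was used for levels between genes and FPKM only for a check against the counts. Each table had 42095 entries. The 598 without a name held 0.396% to 0.464% of the reads and were left out of library sizes and of the fit. They were tested in a separate fit with the same scaling. A total of 7 records broken over lines were rejoined in each file.

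Genes were kept by filterByExpr at a minimum count of 10, scaled by TMM and compared by the two-sided edgeR 4.0.16 quasi-likelihood F test with robust dispersion over 14860 genes. Adjustment of p followed Benjamini and Hochberg over all of them, and genes were called at 0.05. CPM used the TMM-scaled library size. Shares and ratios of TPM were compared by exact permutation tests. Intervals cover counting error only, since PCR copies could not be told apart. The log2 CPM for correlations used a pseudocount of 1, for genes averaging 5 CPM or more. Python 3.11.15 with scipy 1.17.1 and pandas 2.3.3 was used beside R 4.3.3 with DESeq2 1.42.0 and limma 3.58.1. The edgeR and DESeq2 fits were tested on simulated counts, and the other steps were not tested in this way.

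The 10 genes, the 7 pathway lists, the marker lists and the motifs were chosen with earlier results of these data known. Besides the 10 genes, the text names the pathway genes changed at least 2-fold, the 3 called genes with the smallest p in each list, unnamed loci within 20 kb of the 10 genes and the 3 genes most like the most changed of them. A few genes that belong to the lists are not reported here. Genes used as checks and overlapping genes are given where a value turns on them. Of the neighbouring genes within 20 kb, a selection is given. Alternatives were RLE and total count scaling, other count filters, primary entries only or entries summed, DESeq2, limma-voom, glmTreat against 1.2-fold, the omission of each library and a replicate block.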

Additional observations from a re-analysis of the deposited data

How the results depend on the processing

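The number of the 10 genes called was 7 to 9 over the fits without 1 library, and 5 with glmTreat against 1.2-fold, where 3327 genes (1473 higher and 1854 lower) were called in all. Without 1 library, 5333 to 7196 genes were called in all, and 26 to 35 pathway genes, of which 10 to 15 were higher and 16 to 20 lower. With total counts only, 2134 genes and 7 pathway genes were higher. SPHK1, SPHK2, SGPP2, SGPL1, S1PR1, S1PR3 and UGCG kept their direction and call in all 15 alternatives run for single genes. Those 15 did not include glmTreat. With 5 of the 10 genes called by glmTreat, not all of the genes just named kept their call there, and which ones lost it is not given. S1PR2 had log2 fold changes from 0.36 to 0.66 without 1 library and was not called without control replicate 2 or 3. CERS2 was called with total counts only, at -0.23, and without 1 library its values lay between -0.18 and -0.086. The summed SGPP1 entries ranged from -0.996 to 0.31 without 1 library, with the reversal at 0.31 without control replicate 1. With raw counts in place of TPM, the difference between groups was 11.2 percentage points for the kinase share of SPHK1 and -40.1 for the receptor share of S1PR1. With S1PR5 in the sum, an alternative added after the data were seen, as was the one on SGPP1 without each library, the share differences were -6.93 for S1PR2 and -0.80 for S1PR3, both reversed. The cause was not tested in any case in which a value changed, apart from the fewer libraries or the other sum by which an alternative is built.

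Same-numbered libraries of the groups had correlations of deviations of 0.11, -0.01 and 0.08, against -0.15 to 0.09 for differently numbered ones. So few libraries cannot decide whether the numbers pair them. With a replicate block 6790 genes were called in all, 8 of the 10 genes and 31 pathway genes. Only SMPD1 lost its call among the named genes followed through the alternatives, which leave out SPTLC2. No value is given here under any alternative for SGPP1 at its primary entry, which had 1 read in each group. The loosest count filter admitted entries with so few reads, and what it gave for this entry is not reported. Arms of 2 libraries were tested with the spread pooled over both groups. The lowest read number in a library was 23 for SGPP2 and 42 for S1PR3, which bounds the precision of their CPM values.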
